A study of Mus musculus with 36 samples.

Results

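The cytochrome P450 genes of families 1 to 3 were followed in the livers of mice that received quercetin, a plant flavonoid, in a mild-high-fat diet. A probe belonged to the set when its gene name on the array began with Cyp1, Cyp2 or Cyp3, a subfamily letter and a number, and no measured value was used in the choice. This gave 67 probes for 44 genes in 15 subfamilies, out of 41174 probes for 27745 gene names. The samples were 36 adult male C57BL/6J mice in 3 groups of 12, and all of them were fed the same mild-high-fat diet, with 30% of the energy from fat, during an adaptation of 3 weeks. The baseline group (t=0) was killed at the end of that adaptation and received no quercetin. The control group (HF) stayed on this diet for a further 12 weeks, and the quercetin group (HF-Q) received it with 0.33% (w/w) quercetin for the same 12 weeks, so the fat content was common to all 3 groups. The methods give a shorter adaptation and the substrain C57BL/6JOlaHsd, and the sample labels are followed here. No genetic change is described for any group, and every mouse had an array of its own.

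These enzymes are heme proteins of the endoplasmic reticulum that insert an oxygen atom into drugs, plant compounds, steroids, bile acids and fatty acids. They receive their electrons from cytochrome P450 oxidoreductase, the product of Por, and in part from cytochrome b5. In the liver many of them are induced by foreign compounds through the receptors Car (Nr1i3), Pxr (Nr1i2) and Ahr, several differ between the sexes, and several are confined mainly to hepatocytes around the central vein. Dbp, Tef and Hlf are clock-driven transcription factors that bind D-box sequences and are known to act upstream of Car and of a number of P450 genes.

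The start regions of 4 genes are shown: the markers Cyp2a5, Cyp2b10 and Cyp3a11, and Cyp2a4, a close relative of Cyp2a5. The marker Cyp2c37 and the rest of the Cyp2c subfamily are not printed. RefSeq promoters of mouse build GRCm38.p6, each with 250 bases before and 50 bases after the gene start, were found for 38 of the 44 genes (41 promoters). Capitals mark the D-box variant TTGCATAA in Cyp2a5 (chr7:26835089-26835388, plus strand), Cyp2a4 (chr7:26306942-26307241, plus strand) and Cyp2b10 (chr7:25897408-25897707, plus strand). In Cyp3a11 (chr5:145879805-145880104, minus strand) they mark AGGTCA, a short site for nuclear receptors, and the reverse complement of its variant AGTTCA.
Cyp2a5: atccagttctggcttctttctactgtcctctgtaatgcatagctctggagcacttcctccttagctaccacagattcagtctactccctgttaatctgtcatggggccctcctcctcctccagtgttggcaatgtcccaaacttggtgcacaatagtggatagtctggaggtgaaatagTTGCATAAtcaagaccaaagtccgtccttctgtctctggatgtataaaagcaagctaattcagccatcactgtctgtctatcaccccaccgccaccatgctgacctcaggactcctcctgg
Cyp2a4: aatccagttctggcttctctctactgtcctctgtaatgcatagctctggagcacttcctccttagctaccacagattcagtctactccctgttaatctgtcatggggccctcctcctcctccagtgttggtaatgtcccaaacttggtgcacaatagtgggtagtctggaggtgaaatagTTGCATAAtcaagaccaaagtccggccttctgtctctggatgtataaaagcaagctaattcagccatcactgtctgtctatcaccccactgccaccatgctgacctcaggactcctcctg
Cyp2b10: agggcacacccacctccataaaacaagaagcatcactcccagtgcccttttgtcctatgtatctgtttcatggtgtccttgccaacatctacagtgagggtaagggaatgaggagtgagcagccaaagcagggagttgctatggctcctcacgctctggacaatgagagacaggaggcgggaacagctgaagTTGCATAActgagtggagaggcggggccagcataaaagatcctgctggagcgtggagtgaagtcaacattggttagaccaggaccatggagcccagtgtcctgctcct
Cyp3a11: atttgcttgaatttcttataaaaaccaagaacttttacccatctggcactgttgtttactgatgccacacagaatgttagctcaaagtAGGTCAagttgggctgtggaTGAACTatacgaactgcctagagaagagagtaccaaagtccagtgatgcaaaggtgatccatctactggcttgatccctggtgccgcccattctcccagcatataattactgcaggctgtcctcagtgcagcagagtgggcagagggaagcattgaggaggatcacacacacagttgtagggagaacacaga

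Cyp2a4 and Cyp2a5, closely related genes of chromosome 7, agreed at 294 of 299 promoter bases (98.3%) once 1 sequence was shifted by 1 base. TTGCATAA began at position -71 from the gene start in Cyp2a5, at -70 in Cyp2a4 and at -58 in Cyp2b10, and AGGTCA and the reverse-complement match began at -162 and -142 in Cyp3a11. Searched on both strands, TTGCATAA stood in 4 of the 41 member promoters (9.76%; Cyp2a4, Cyp2a5, Cyp2b10 and Cyp2b19) and in 0.743% of all 32851 promoters. The D-box core TTATGTAA stood in 0 of 41 and in 0.938% of all. AGGTCA stood in 14 of 41 (34.1%) and in 16.3% of all, AGTTCA in 4 of 41 (9.76%) and in 14% of all, and TATAAA in 22 of 41 (53.7%) and in 13.6% of all. No motif contains another, they were chosen after the sequences had been seen, and a match describes letters only, without a statement on binding.

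Each value below is the log2 ratio of the liver RNA of 1 mouse (Cy5) over a common pool of all mice (Cy3), so values of different probes are not compared as levels. A probe counted as expressed when its mean signal exceeded 2 times the background in both channels. The value of a gene is that of its brightest expressed probe. A gene was called when its adjusted p (limma, Benjamini-Hochberg over all expressed probes) lay under 0.05. Of the 44 genes, 35 (46 probes) were expressed in at least 1 comparison. The 9 others were Cyp1a1, Cyp1b1, Cyp2b10, Cyp2b13, Cyp2c38, Cyp2c55, Cyp2c65, Cyp2c66 and Cyp2w1. Cyp2b19 was expressed only in the comparisons that include the quercetin group, with values of -0.02 and -0.01. Without quercetin replicate 2, a bright array described below, it was no longer expressed in quercetin against baseline. In quercetin against control it still was (-0.00795). A total of 11 probes list more than 1 gene, and the probes of Cyp2a4, Cyp3a11, Cyp2c40, Cyp2d9 and Cyp2b9 are among them.

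The arrays showed liver: all 7 hepatocyte markers on the array were expressed, and their summed ratio to the pool ranged from 5.92 to 9.52 over the 36 mice. The arrays lay on 9 slides of 4, each with all 3 groups. Quercetin replicate 2 stood apart, with 96.7% of its spots well above background in Cy5 against 56.4% to 67.4% on the other 35 arrays. Control replicate 5 held transcripts of pancreatic enzymes, with a summed ratio of 179 for 6 pancreas markers against a control median of 0.798. Each result of the P450 genes was therefore also computed without these mice. Of 630 pairs of arrays, 17 correlated below -0.3 over all probes (lowest -0.37). By group, the lowest array correlation was -0.35 for control, against 0.333 for baseline and 0.42 for quercetin, and the cause was not tested. The direction of the ratios was kept because labels and methods both place the single mouse in Cy5.

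Quercetin was first compared with the control diet. Cyp2a5, Cyp2a4, Cyp2c39, Cyp2c37 and Cyp2e1 were higher in the quercetin group, by 1.27-fold to 1.82-fold, and Cyp2u1 was lower. The other 29 of the 35 tested genes were not called. The 6 called genes were 17.1% of those tested, 5 higher and 1 lower, whereas 3.47% of all 18372 tested probes were called, 2.26% higher and 1.21% lower. The median log2 fold change was 0.03 over the 35 genes and -0.01 over all tested probes, and 23 of the 35 had a positive sign. At an unadjusted p under 0.05 there were 12 genes. Counted as probes, 8 of 46 were higher and 1 was lower.

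**Figure D1:**
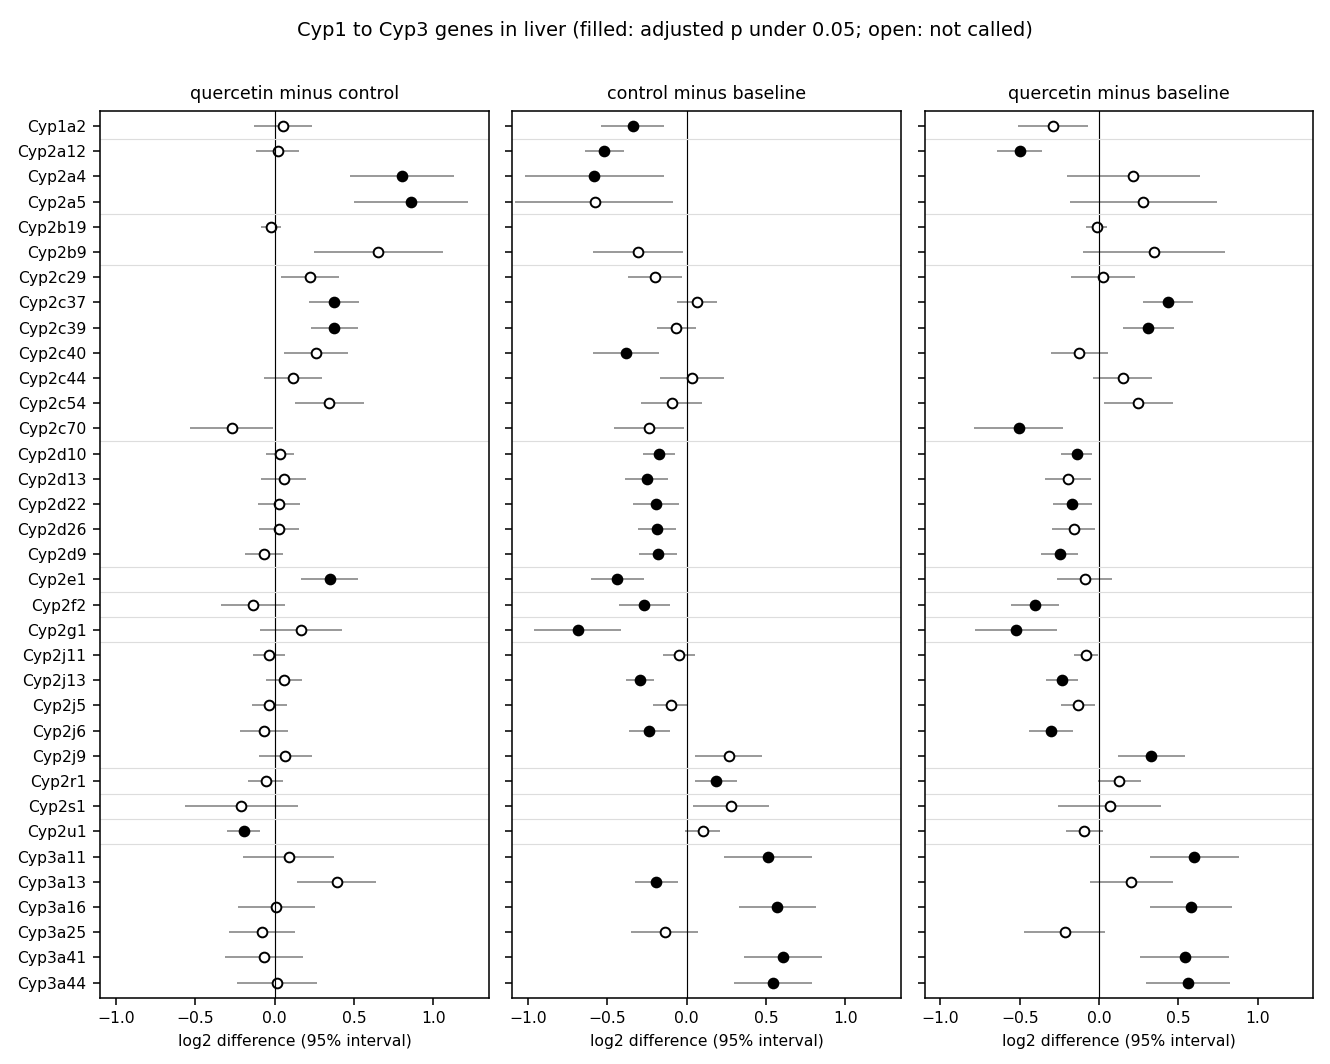
Log2 difference (horizontal axis) of each expressed P450 gene between quercetin and control, control and baseline, and quercetin and baseline (3 panels), with bars for the 95% confidence interval and filled points for called genes. On the left Cyp2a5 (0.86) and Cyp2a4 (0.80) lie farthest to the right and the Cyp2d genes lie around 0, and in both panels against baseline 4 Cyp3a genes lie at 0.51 or more.

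The Cyp2a subfamily gave the largest differences. Cyp2a5, a coumarin hydroxylase that also acts on nicotine, ranged from -1.2 over a median of -0.59 to 0.37 in the control mice and from -0.46 over 0.31 to 1.08 in the quercetin mice. The groups overlapped, but 12 of 12 quercetin mice lay above the control median. Its log2 fold change was 0.86 (SE 0.176, adjusted p = 0.00587, 1.82-fold) by a probe at chr7:26551910-26551969 (mm8, plus strand) that lists Cyp2a5 alone. The second Cyp2a5 probe, which lists both genes, gave 0.79.

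Cyp2a4, a steroid hydroxylase that is higher in females, ranged from -1.22 over -0.64 to 0.17 in the control mice and from -0.53 over 0.21 to 0.92 in the quercetin mice. Here too 12 of 12 quercetin mice lay above the control median. The log2 fold change was 0.80 (SE 0.158, adjusted p = 0.00453), and its second probe gave 0.69. Both Cyp2a4 probes also list Cyp2a5, so the signals of these genes cannot be told apart there. Cyp2a12, a bile acid hydroxylase of the same subfamily, was at 0.02 (95% interval -0.11 to 0.15).

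In the Cyp2c subfamily, whose members include epoxygenases of arachidonic acid, 2 of 7 tested genes were called and 6 of 7 had a positive sign. Cyp2c39, known as a retinoic acid hydroxylase, ranged from -0.44 over -0.10 to -0.02 in the control mice and from 0.04 over 0.17 to 0.83 in the quercetin mice. The lowest quercetin mouse thus lay above the highest control mouse. Of the 46 tested member probes this was the only one whose groups did not overlap. The share over all probes was not computed, so how common this was on the array is not known. The log2 fold change was 0.38 (SE 0.0712, adjusted p = 0.00341).

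Cyp2c37, an arachidonic acid hydroxylase and a known target of Car, ranged from -0.60 over -0.20 to -0.04 in the control mice and from -0.12 over 0.12 to 0.76 in the quercetin mice. Only the 2 lowest quercetin mice reached into the control range. The log2 fold change was 0.37 (SE 0.0766, adjusted p = 0.00606), with 12 of 12 quercetin mice above the control median. A second probe, which also lists Cyp2c50, gave 0.42 (adjusted p = 0.0159).

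The other tested Cyp2c genes did not pass the test. Cyp2c54 had a log2 fold change of 0.34 (adjusted p = 0.0718), Cyp2c40 of 0.26 (0.153), Cyp2c29 of 0.22 (0.18) and Cyp2c44, now named Cyp2c23, of 0.12 (0.538). Cyp2c70, which makes muricholic acids in mouse bile, was the member with a negative value, -0.27 (adjusted p = 0.276). Its quercetin mice spread from -1.24 to 0.26, and the lowest value came from replicate 4.

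Cyp2c38, a further epoxygenase, was too dim for the rule above, although both of its probes are in the authors' table. Its brighter probe ranged from -0.23 over -0.07 to 0.09 in the control mice and from -0.14 over 0.16 to 0.60 in the quercetin mice, with 11 of 12 quercetin mice above the control median. Without the filter on dim probes the log2 fold change was 0.25 (adjusted p = 0.0448), and the second probe gave 0.20 (adjusted p = 0.166). On the authors' values the probes gave 0.59 (adjusted p = 0.0034) and 0.46 (adjusted p = 0.00535).

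Cyp2e1, which oxidises ethanol, acetone and paracetamol, ranged from -0.59 over -0.19 to 0.13 in the control mice and from -0.17 over 0.14 to 0.63 in the quercetin mice. All 12 quercetin mice lay above the control median, although the ranges overlapped broadly. Its log2 fold change was 0.35 (SE 0.0866, adjusted p = 0.0246). With slide as a block it was not called (adjusted p = 0.062).

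Cyp2u1, a fatty acid hydroxylase, ranged from -0.10 over 0.11 to 0.28 in the control mice and from -0.40 over -0.10 to 0.05 in the quercetin mice. All 12 quercetin mice lay below the control median. The log2 fold change was -0.19 (SE 0.051, adjusted p = 0.0324), which was not called with slide as a block (adjusted p = 0.0733).

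**Figure D2:**
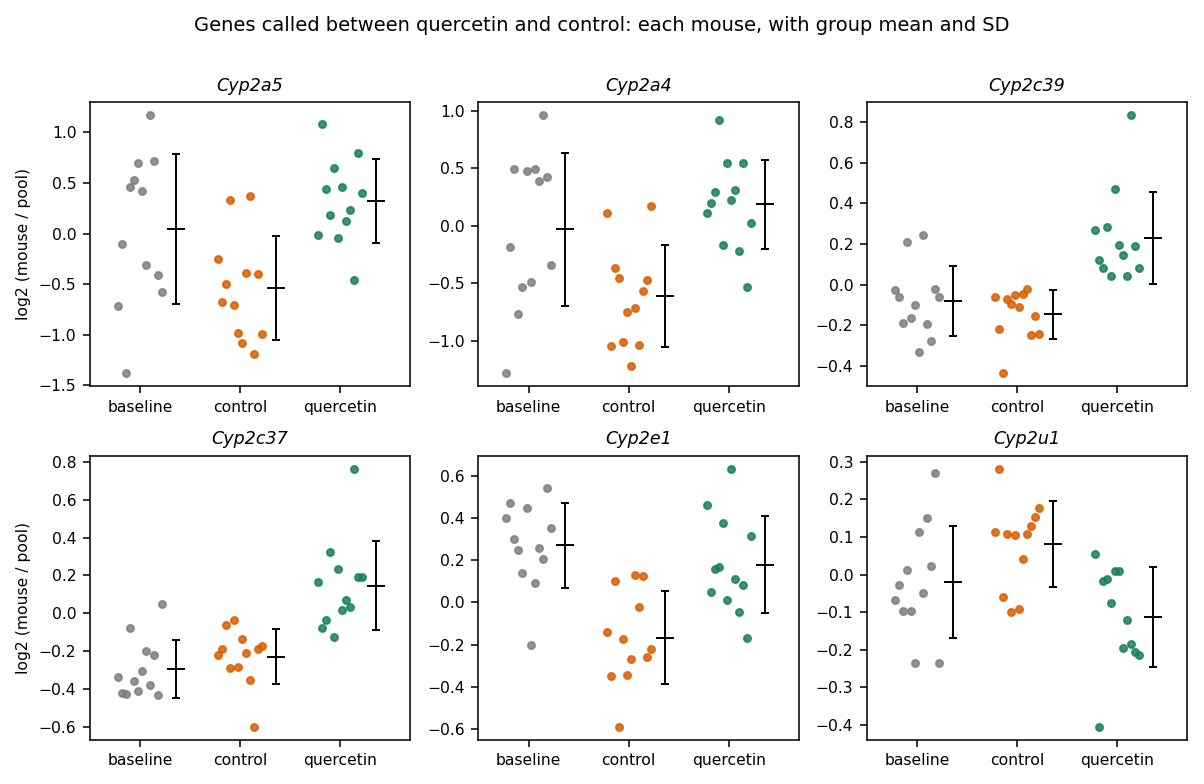
Log2 ratio of each mouse over the pool (vertical axis) for the 6 genes called between quercetin and control, with baseline mice in grey, control mice in orange, quercetin mice in green, and the group mean with its SD beside them (n = 12 per group). The quercetin mice of Cyp2c39 start at 0.04, above every control mouse, while in the other panels the ranges overlap.

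One mouse, quercetin replicate 6, was the highest of its group for 12 of the 35 expressed genes, Cyp2c39, Cyp2c37 and Cyp2e1 among them, and the lowest for Cyp2u1. Without this mouse, an omission chosen after the values had been seen, the same 6 genes were called. Cyp2c39 then had a log2 fold change of 0.32 and Cyp2c37 of 0.32. The call of Cyp2u1 lay close to the threshold (adjusted p = 0.0499). The same 6 genes were also called without quercetin replicate 2 and without control replicate 5.

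Within slides, quercetin minus control was positive on 9 of 9 slides for Cyp2a4, Cyp2c39 and Cyp2c37, on 8 for Cyp2a5 and on 6 for Cyp2e1, and on 1 for Cyp2u1. The differences of Cyp2a5 ran from -0.10 to 1.72 over the slides, those of Cyp2c39 from 0.14 to 0.98 and those of Cyp2u1 from -0.53 to 0.08. With slide as a block, Cyp2a5, Cyp2a4, Cyp2c39 and Cyp2c37 were still called. With median centring of each array in place of loess 0 genes were called, although Cyp2a5 was at 0.86 (adjusted p = 0.057) and Cyp2c39 at 0.34 (0.322), and with scale normalization after loess 3 were higher and 0 lower.

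**Figure D3:**
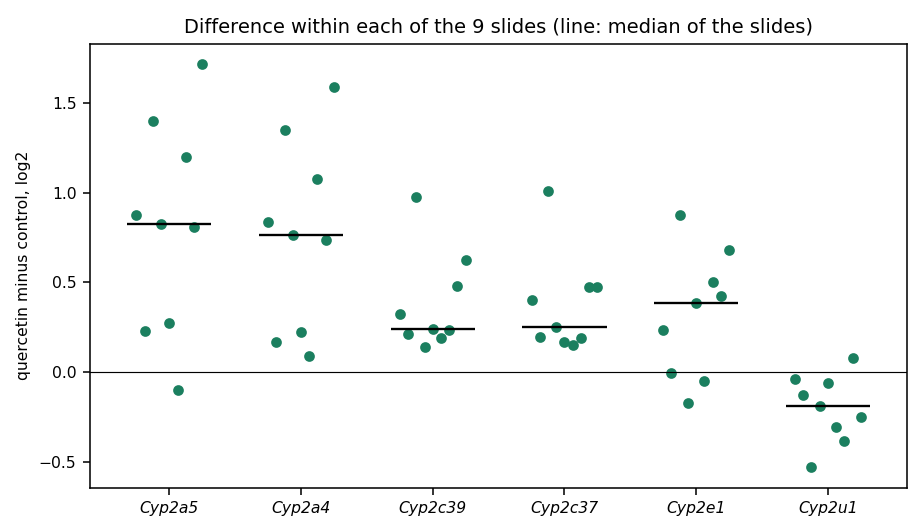
Quercetin minus control within each of the 9 slides (log2, vertical axis) for the 6 called genes, 1 point per slide, with the median of the slides as a line. All points of Cyp2a4, Cyp2c39 and Cyp2c37 lie above 0, and 1 point of Cyp2u1 does.

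In the Cyp2b and Cyp3a subfamilies, the classic targets of Car and Pxr, no expressed gene was called. Cyp2b10, the standard marker of Car activation, was not expressed by the rule above: its mean Cy5 signal was 2.08 times and its mean Cy3 signal 1.71 times the background. Its log2 ratios ran from -0.23 over -0.10 to 0.21 in the control mice and from -0.25 over -0.04 to 0.19 in the quercetin mice, nearly the same range. Cyp2b13, which was not expressed by that rule either, ranged from -0.39 over -0.24 to -0.02 in the control mice and from -0.14 over 0.10 to 0.92 in the quercetin mice. This probe lists 4 Cyp2b genes, and without the filter on dim probes its log2 fold change was 0.40 (adjusted p = 0.015), while the probe that lists Cyp2b13 alone gave -0.01 (adjusted p = 0.972).

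Cyp2b9, a female-predominant gene with a dim probe that also lists Cyp2b10, ranged from -0.76 over -0.41 to -0.05 in the control mice and from -0.35 over -0.01 to 2.12 in the quercetin mice. The highest value belonged to quercetin replicate 5. The log2 fold change of 0.65 (SE 0.196) missed the threshold (adjusted p = 0.0627) and passed it with slide as a block (adjusted p = 0.0321).

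Cyp3a11, the main hepatic Cyp3a enzyme for drugs, ranged from -0.41 over -0.08 to 0.57 in the control mice and from -0.43 over 0.15 to 0.79 in the quercetin mice. The ranges coincided almost entirely, and the log2 fold change was 0.09 (95% interval -0.20 to 0.38). Its probe also lists Cyp3a41a and Cyp3a44. Cyp3a16, Cyp3a44 and Cyp3a41 had log2 fold changes of 0.01, 0.02 and -0.07. Cyp3a13, expressed also in the gut, had 0.39 (adjusted p = 0.0711), with 1 mouse, quercetin replicate 4, at 1.45.

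The remaining subfamilies showed small differences. The 5 tested Cyp2d genes lay between -0.07 and 0.06 and the 5 Cyp2j genes between -0.07 and 0.07, and none was called. Cyp1a2, which metabolises caffeine and is induced through Ahr, had a log2 fold change of 0.05 (95% interval -0.13 to 0.24). Cyp2f2, a naphthalene-activating enzyme of periportal hepatocytes, had -0.14 (-0.34 to 0.07), Cyp2g1 had 0.17, Cyp2s1 had -0.21 and Cyp2r1, a vitamin D hydroxylase, had -0.06.

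Grouped by regulator, 2 of the 5 tested Car-responsive genes were called higher (Cyp2a5 and Cyp2c37), with a median log2 fold change of 0.34. That list has 8 genes, of which 7 are on the array. Its members Cyp2b10 and Cyp2c55 were not expressed by the rule above. Without the filter on dim probes Cyp2b10 was at 0.05 and 0.03 and Cyp2c55 at -0.08, none of them called. Of the Pxr-responsive genes 0 of 3 and of the Ahr-responsive genes 0 of 2 were called, with medians of 0.09 and -0.08. Of the female-predominant genes 2 of 7 were higher (median 0.26), and the male-predominant gene Cyp2d9 was at -0.07. Of the arachidonic acid epoxygenases 2 of 9 were higher (median 0.22). Of the pericentral P450 genes 3 of 6 were higher (median 0.29). Among 6 expressed pericentral markers outside the P450 families only Slc1a2 was called, at 0.24, and Glul, the glutamine synthetase of the innermost cell layer, was at -0.05. The call of Slc1a2 was lost without control replicate 5 (adjusted p = 0.0537), without quercetin replicate 6 (0.0589), with slide as a block (0.0807) and under median centring (0.557). The list medians stand beside a median of -0.01 over all probes. The list counts stand beside 3.47% of all tested probes called, 2.26% higher and 1.21% lower, and no list was tested against these shares. In whole liver, fewer cells of a type and less RNA per cell cannot be told apart.

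Some markers of other liver cells also differed between the quercetin and control groups. All 4 expressed bile duct markers had a negative sign (median -0.30), with Sox9 called at -0.52 (adjusted p = 0.0017), and their summed ratio ran from 3.79 to 6.52 in the control and from 2.80 to 4.34 among quercetin mice, while Epcam and Cftr of that list were not expressed. Of 6 endothelial markers Pecam1 was called, at 0.23 (adjusted p = 0.00907, or 0.0502 with slide as a block and 0.272 under median centring), with a summed ratio of 5.91 to 6.77 among control and 5.54 to 7.11 among quercetin mice. Only 3 of these 6 had a positive sign, and the list median was -0.00127. No Kupffer, stellate or lymphocyte marker was called, with list medians of 0.03, -0.08 and -0.03. None of the 5 periportal markers was called by limma. The part of these cells in the P450 values was not tested.

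The partners of these enzymes were then examined. The log2 ratio of Por averaged -0.70 ± 0.311 (SD, n = 12) in control mice and 0.28 ± 0.396 in quercetin mice, a difference of 0.97 (SE 0.135, adjusted p = 0.000278). It was the only one of 8 genes of electron transfer and heme supply that was called. Alas1, the first enzyme of heme synthesis, had a log2 fold change of 1.15 (SE 0.335) but missed the threshold (adjusted p = 0.0536). Cyb5a, which encodes cytochrome b5, was at 0.16.

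Of the 12 tested sensors and liver factors, Car (Nr1i3) alone was called, averaging -0.31 ± 0.144 (SD, n = 12) in control mice and 0.16 ± 0.202 in quercetin mice, a log2 difference of 0.48 (adjusted p = 0.000324). Pxr (Nr1i2) was at 0.01 and Ahr at 0.12. Nr0b2, the repressor Shp, was at -0.45 (adjusted p = 0.0611).

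Of the 5 clock-driven factors 4 were called. Dbp was higher by 0.90 (adjusted p = 0.00547), Tef by 0.65 (0.00218) and Hlf by 0.34 (0.0351), and Arntl, a core clock gene that peaks when Dbp is low, was at -0.76 (0.00369). Hlf was not called with slide as a block (adjusted p = 0.168) or without quercetin replicate 6 (0.0515). Nr1d1 was at 0.01. When Arntl was entered as a covariate, 0 of the 35 P450 genes and 0 of all 18372 probes were called by limma. Cyp2a5 then had a log2 fold change of 0.33, Cyp2a4 of 0.35, Cyp2c39 of 0.27 and Cyp2c37 of 0.26. The time of killing of each mouse was not used here, so its part in these differences was not tested.

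Across mice, 8 relations were computed between the deviations from the group means of 4 P450 genes (Cyp2a5, Cyp2b10, Cyp2c37 and Cyp3a11) and those of Por and Dbp. These genes were chosen with earlier results of these data known. Cyp2a5 correlated with Dbp over the 36 mice (Pearson's r = 0.667, permutation p = 0.00013, adjusted 0.00104; Spearman's rho = 0.633, permutation p = 0.00023, adjusted 0.00184). Without the 2 mice farthest from the median of Dbp, r was 0.615. Within single groups r was 0.70 for the baseline mice, 0.685 for the control mice and 0.53 for the quercetin mice, the last of which did not pass alone (permutation p = 0.0776). The baseline mice split by replicate number. Their Cyp2a5 deviations ran from -1.42 to -0.15 in replicates 1 to 6 and from 0.38 to 1.13 in replicates 7 to 12. Those of Dbp ran from -1.63 to 0.62 and from 0.23 to 1.04. The permutations within groups do not allow for this split, and its cause was not tested.

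Cyp2a5 also correlated with Por (r = 0.516, permutation p = 0.00309, adjusted 0.0124; rho = 0.462, permutation p = 0.00949, adjusted 0.038). Without the 2 farthest mice r was 0.481. It was closest among the baseline mice (r = 0.758), whereas control mice alone gave 0.174 (permutation p = 0.583) and quercetin mice alone 0.33 (permutation p = 0.292). Among the baseline mice Por largely followed the split by replicate number. Its deviations ran from -0.69 to 0.05 in replicates 1 to 6 and from -0.28 to 0.82 in replicates 7 to 12. For the other 6 relations r lay between -0.204 and 0.146, with adjusted permutation p of at least 0.649. Those of Cyp2b10 (0.146 with Por and 0.141 with Dbp) rest on a probe that was not expressed by the rule above. So near background, they cannot show whether this gene varied with Por or Dbp. With slide means removed as well as group means, in an additive fit, r was 0.711 for Cyp2a5 with Dbp and 0.56 with Por. All arrays share the same pool channel.

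**Figure D4:**
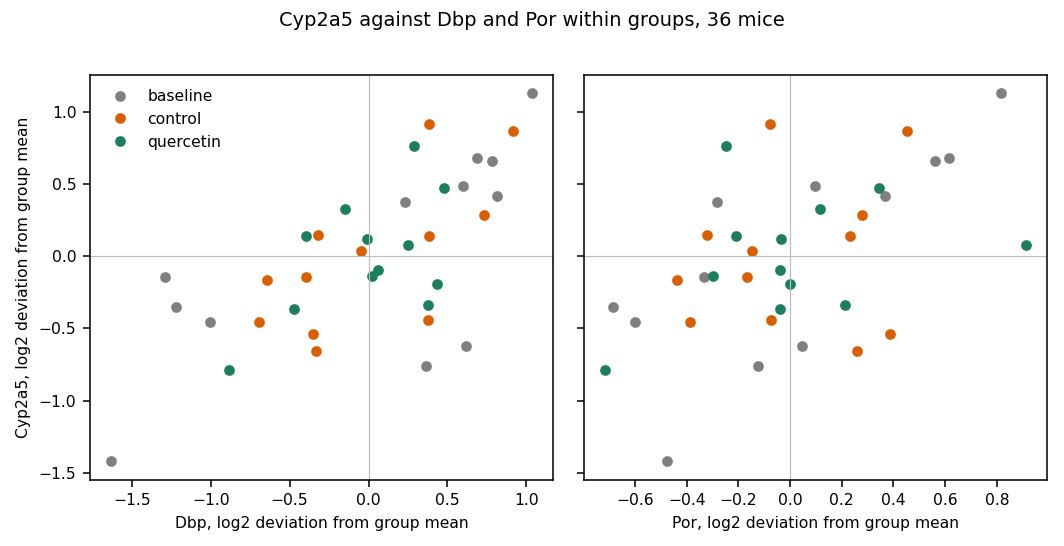
Deviation of Cyp2a5 from its group mean (vertical axis, log2) against the same for Dbp (left) and Por (right), 1 point per mouse, with baseline in grey, control in orange and quercetin in green. The points rise from lower left to upper right more tightly for Dbp (r = 0.667) than for Por (r = 0.516).

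The baseline group shares its diet with the control group but was killed 12 weeks earlier, so age and time on the diet cannot be told apart in comparisons with it. The comparisons that follow share the control, quercetin or baseline mice with those above. In the control group, 4 Cyp3a genes and Cyp2r1 were higher than at baseline, and 15 genes were lower. Among the lower genes were Cyp2a12, Cyp2e1, Cyp2g1 and all 5 tested Cyp2d genes. Under median centring none of the 5 Cyp2d genes was called and 3 of them changed sign, and with slide as a block 2 of them lost the call. The 20 called genes were 58.8% of the 34 tested, where 24.9% of all 17778 tested probes were called, 12.6% higher and 12.3% lower. The median log2 fold change was -0.18 over the genes and 0.01 over all probes.

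The split depends on the scaling. Median centring in place of loess moved the median of all probes to 0.12 and left 10 called genes, 8 higher and 2 lower. Under it the 4 Cyp3a genes remained higher and Cyp2a12 (-0.36) and Cyp2g1 (-0.78) lower, whereas Cyp2d10, Cyp2d26 and Cyp2d9 turned to 0.02, 0.01 and 0.01.

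Cyp3a41, a female-predominant and neonatal gene, ranged from -0.93 over -0.57 to 0.21 at baseline and from -0.24 over 0.12 to 0.51 in the control mice. All 12 control mice lay above the baseline median, and the log2 fold change was 0.61 (SE 0.12, adjusted p = 0.00074). Cyp3a16, with 0.57, Cyp3a44, with 0.54, and Cyp3a11, with 0.51 (adjusted p = 0.00706), moved by similar amounts. These genes are close relatives, and the Cyp3a11 probe lists 3 of them, so the probes are not independent. Cyp3a13 went the other way, at -0.19 (adjusted p = 0.0348), and Cyp3a25 was at -0.14.

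Cyp2g1, best known as an olfactory enzyme, ranged from -0.18 over 0.33 to 1.2 at baseline and from -0.78 over -0.31 to 0.38 in the control mice. Its log2 fold change was -0.69 (SE 0.135, adjusted p = 0.000655). Cyp2a12 ranged from -0.11 over 0.18 to 0.44 at baseline and from -0.60 over -0.36 to -0.04 in the control mice, with all 12 control mice below the baseline median. It was lower by a log2 fold change of -0.52 (SE 0.0598, adjusted p = 1.29e-06).

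Cyp2e1 ranged from -0.20 over 0.28 to 0.54 at baseline and was lower in the control group by -0.44 (adjusted p = 0.000443, or 0.236 under median centring). Cyp2a4 was lower by -0.58 (adjusted p = 0.0462) but was not called with slide as a block (adjusted p = 0.151, with Cyp2d22 at 0.103 and Cyp2d9 at 0.061). Cyp2a5 was at -0.58 (adjusted p = 0.0786). Its second probe, which also lists Cyp2a4, was called at -0.61 (0.0411, or 0.147 with slide as a block). The second probe of Cyp2j5 was called at -0.16 (adjusted p = 0.0118) but was at 0.01 under median centring. Counting any expressed probe, 22 genes were called, 5 higher and 17 lower. The baseline mice of Cyp2a5 spread from -1.38 to 1.17, more widely than either other group.

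Smaller decreases were called for Cyp2c40 (-0.38), Cyp1a2 (-0.34), Cyp2j13 (-0.30), Cyp2f2 (-0.27) and Cyp2j6 (-0.24). Under median centring none of these was called (adjusted p from 0.223 for Cyp2j13 to 0.705 for Cyp2f2). The Cyp2d genes, enzymes of drug and steroid metabolism, lay between -0.25 for Cyp2d13 and -0.18 for Cyp2d10, with all 12 control mice below the baseline median for 4 of the 5. Under median centring Cyp2d10, Cyp2d26 and Cyp2d9 were not lower. Cyp2d13 (-0.10, adjusted p = 0.554) and Cyp2d22 (-0.03, 0.847) were not called there either. Cyp2r1 was higher by 0.18 (adjusted p = 0.0374). Cyp2c37 (0.06) and Cyp2c39 (-0.07) were not called.

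By list, the Car-responsive genes had 1 higher of 5 (Cyp3a11) and a median of -0.10, the Pxr-responsive genes 1 higher and 1 lower of 3, and the Ahr-responsive genes 1 lower of 2. The female-predominant genes had 3 higher and 2 lower of 7 and the pericentral genes 1 higher and 2 lower of 6. The 3 higher female-predominant genes were the close relatives Cyp3a16, Cyp3a41 and Cyp3a44. Of the epoxygenases 2 of 9 were lower. Over all tested probes 24.9% were called, 12.6% higher and 12.3% lower, and no list was tested against these shares. All 5 periportal markers outside the P450 families were called lower, between -0.26 for Gls2 and -0.70 for Sds. Under median centring Sds alone was still called (-0.56), and the others lay between -0.07 for Gls2 and -0.19 for Cps1. Ass1 was also lost with slide as a block (adjusted p = 0.0786) and without control replicate 5 (0.0527). Of 6 pericentral markers outside the P450 families only Rhbg was called, lower at -0.65 (-0.62 under median centring). Of 7 hepatocyte markers Ttr (-0.25) and Tdo2 (-0.27) were called lower, but not under median centring (adjusted p = 0.674 and 0.673). Of 4 expressed bile duct markers 3 were higher, with a summed ratio of 2.92 to 4.80 at baseline and 3.79 to 6.52 in the control group, while Epcam and Cftr were not expressed. The part of these cells in the P450 values was not tested. Por was lower (-0.64), as were Car (-0.30), Pgrmc1 (-0.17) and Hlf (-0.35), and Cyb5b (0.25), Hmox1 (0.31) and Nfe2l2 (0.26) were higher. Under median centring Por (adjusted p = 0.128), Car (-0.15, 0.412) and Hlf (0.323) were not called and Pgrmc1 turned to 0.02. With slide as a block Pgrmc1 (adjusted p = 0.0697) and Hlf (0.0709) lost the call, as did Hmox1 without control replicate 5 (0.067).

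**Figure D5:**
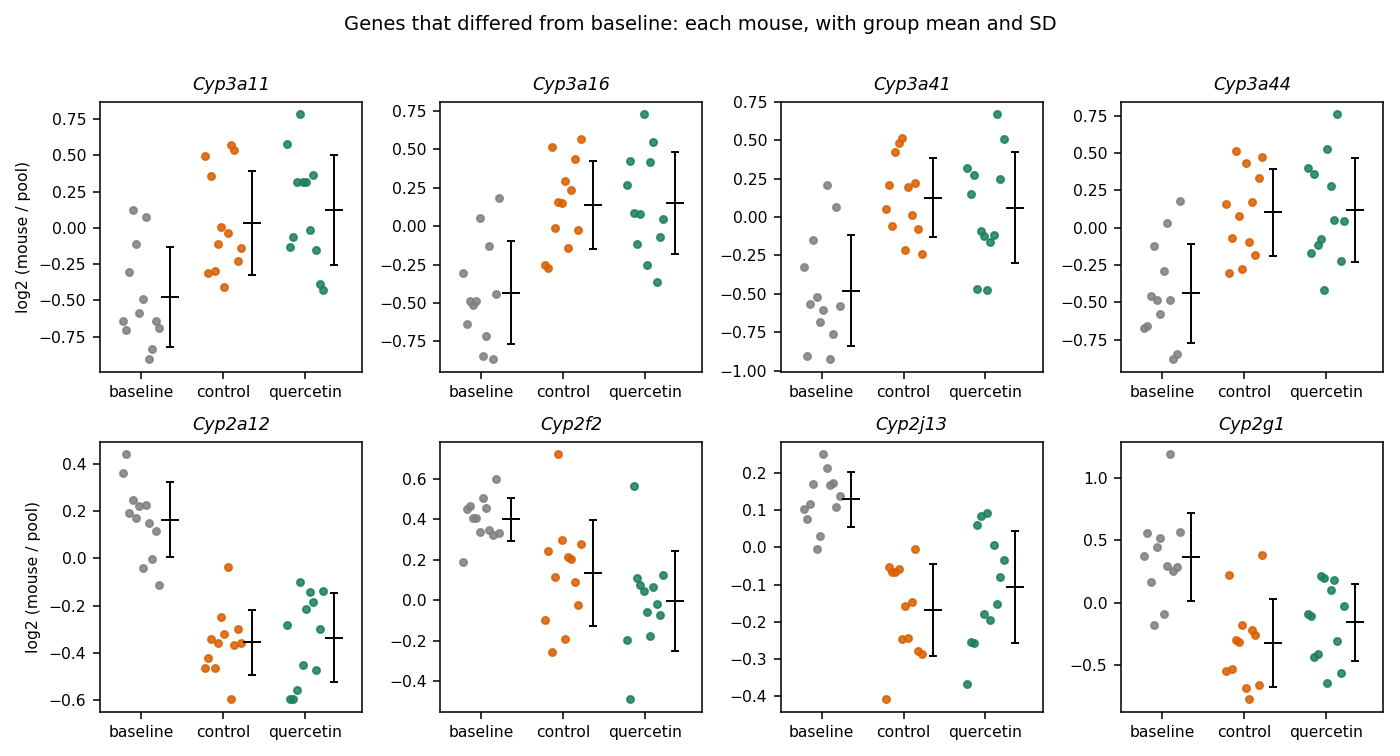
Log2 ratio over the pool (vertical axis) of each mouse for 8 P450 genes that differed from baseline, with the group mean and SD (n = 12 per group). Cyp3a41 rises from a baseline median of -0.57 to 0.12 in the control mice, and Cyp2a12 falls from 0.18 to -0.36.

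The quercetin group was compared with baseline in the same way. Of 35 genes 16 were called (45.7%), 7 higher and 9 lower, where 17.1% of all 18360 tested probes were called, 8.22% higher and 8.86% lower. The median log2 fold change was -0.08 over the genes and -0.00177 over all probes. The same 4 Cyp3a genes were higher, with Cyp3a11 at 0.60 (adjusted p = 0.00369), Cyp3a16 at 0.58, Cyp3a44 at 0.56 and Cyp3a41 at 0.54.

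Cyp2c37 ranged from -0.43 over -0.35 to 0.05 at baseline and was higher in the quercetin group by 0.44 (SE 0.0772, adjusted p = 0.00044). Cyp2c39, which ranged from -0.33 over -0.08 to 0.24 at baseline, was higher by 0.31 (adjusted p = 0.0076). All 12 quercetin mice exceeded the baseline median for both genes. Cyp2j9, an epoxygenase, was higher by 0.33 (adjusted p = 0.0273).

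Cyp2a5 (0.28, 95% interval -0.18 to 0.74), Cyp2a4 (0.22) and Cyp2e1 (-0.09, -0.26 to 0.08) were not called against baseline. For Cyp2e1, the quercetin mean of 0.18 ± 0.228 (SD, n = 12) lay near the baseline mean of 0.27 ± 0.202, and the control mean was -0.17 ± 0.22. Por (0.33, adjusted p = 0.181) and Car (0.18, adjusted p = 0.106) were not called either.

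The lower genes were Cyp2g1 (-0.52), Cyp2c70 (-0.51), Cyp2a12 (-0.50), Cyp2f2 (-0.40), Cyp2j6 (-0.30), Cyp2d9 (-0.25), Cyp2j13 (-0.23), Cyp2d22 (-0.17) and Cyp2d10 (-0.14, but 0.04 under median centring). Cyp2c70 ranged from -0.30 over 0.38 to 0.76 at baseline, and 12 of 12 quercetin mice lay below that median. Its adjusted p was 0.0118, or 0.0535 with slide as a block. Cyp2d22 was not called without quercetin replicate 2 (adjusted p = 0.0753), and without replicate 6 neither Cyp2d22 (adjusted p = 0.0552) nor Cyp2d10 (0.0532) was. Median centring left 6 called genes, 5 higher and 1 lower, loess followed by scale normalization left 8, 3 higher and 5 lower.

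By list, 2 of 5 Car-responsive genes (median 0.28), 4 of 7 female-predominant genes (0.35), 2 of 6 pericentral genes (0.15) and 1 of 3 Pxr-responsive genes (0.20) were higher than at baseline, and 0 of 2 Ahr-responsive genes were called. Of the 9 epoxygenases 3 were higher and 1 was lower. Over all tested probes 17.1% were called, 8.22% higher and 8.86% lower, and no list was tested against these shares. All 5 periportal markers were again lower, between -0.33 for Gls2 and -0.72 for Sds, beside -0.40 for Cyp2f2. Under median centring none of the 5 was called by limma, with values between -0.18 for Gls2 and -0.61 for Sds, and Cyp2f2 was at -0.24 (adjusted p = 0.354). Of 6 pericentral markers only Rhbg was called, lower at -0.51 (-0.56 under median centring). Of 7 hepatocyte markers only Ttr was called, lower at -0.33 (adjusted p = 0.382 under median centring). Fech (0.20) and Hmox1 (0.26) were the called genes of electron transfer and heme supply. Both lost the call without quercetin replicate 2 (adjusted p = 0.0698 and 0.0594) and under median centring (0.261 and 0.235), and Fech also with slide as a block (0.0891).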

How the data were processed

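Liver RNA of 36 mice was measured on 2-colour Agilent whole-genome arrays, and groups were taken from the sample labels. The deposited scanner files hold median intensities per spot and channel, which the authors quantified with Feature Extraction 10.5.1.1 per the file headers, and signals that this program had corrected for background and dye. The deposited table of the authors holds log2 values of Cy5 normalized against Cy3. It covers 37 of the 44 genes and was used as an alternative: its values matched log2 of the Cy5 over the Cy3 median plus the spot's mean log2 Cy3 signal (lowest r 0.9999 over the arrays, 23256 spots), and the column median of the first baseline array was 8.961. Per the methods, spots above 2 times the background were log transformed in GeneMaths XT and Cy5 was normalized against Cy3; the details of that step are in a reference not used here.

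Spot medians were corrected for background by normexp (offset 50), 1639 control spots and 113 to 217 outlier spots per array were left out, log2 ratios were normalized by loess within arrays, and spots of a probe were averaged. Pairs of groups were compared with limma 3.58.1 in R 4.3.3 (lmFit and eBayes, two-sided). Nothing says whether RNA was processed in batches, and all arrays were scanned on 1 day. Genes with several probes are given by the brightest expressed probe. Correlations used 100000 permutations within groups. The script was tested on simulated data. The number of arrays limits the precision.

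Named are all members called in any comparison, the 4 markers Cyp2a5, Cyp2b10, Cyp2c37 and Cyp3a11, and the brightest member of each subfamily; lists are counted whole. The other genes named, Cyp2c54, Cyp2c29, Cyp2c44, Cyp2c38, Cyp2b13 and Cyp3a25 among them, were chosen after their values were seen. Members, lists and the relations with Por and Dbp were chosen with earlier results of these data known. Alternatives changed background correction, normalization, the filter, the test, blocks, the probe of a gene and the mice left out. Probe positions are those of build mm8 in the files, and promoter positions those of GRCm38.p6.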

Additional observations from a re-analysis of the deposited data

How the results depend on the processing

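Of 1631 values of single genes computed under alternatives, 143 lost the call with the sign kept, 22 gained it and 46 changed sign. Of the sign changes 42 were values called in neither setting, the largest that of Dbp in control against baseline, from -0.43 to 0.31 with Arntl as a covariate. The other 4 were called in the main analysis and lost the call as well, all under median centring. These were Cyp2d10 (0.0214), Cyp2d26 (0.0102) and Cyp2d9 (0.00939) in control against baseline and Cyp2d10 (0.0369) in quercetin against baseline. For quercetin against control, 6 genes were called by the main analysis, 0 with median centring, 3 with loess then scale normalization, 2 with the Cy5 channel alone and 0 with Arntl as a covariate; under median centring 69 of all probes were called, and the cause was not tested. For control against baseline the 20 genes became 10 with median centring and 12 with the methods' t-test on the authors' values. For quercetin against baseline the 16 became 8 with scale normalization and 6 with median centring. The other settings stayed within 1.5 times of these counts, and without quercetin replicate 2 they were 6 and 15. Replicate numbers gave no pairing of mice (median r of deviations -0.0342, 0.0521 and 0.00921, with 3, 4 and 1 of 12 pairs over 0.1, and 1, 2 and 1 best with its own number). With a replicate block 5, 18 and 16 genes were called. The correlation of Cyp2a5 with Por was 0.174 in the control and 0.33 in the quercetin mice alone, and that with Dbp was 0.53 in the quercetin mice alone. The omissions of control replicate 5 and quercetin replicate 6 were chosen after seeing the data. Dim probes such as Cyp2b9 (Cy5 at 3.54 times background) limit what can be read from the Cyp2b genes.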
